A study of Mus musculus with 12 samples.

Results

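The data described here are the transcript counts of C2C12 cells, a mouse myoblast line, in which the transcription factor gene Cebpg was knocked down and which then received thapsigargin or its vehicle DMSO for 6 h. They are 6 of the 12 libraries of the series, 3 titled Sh2-DMSO and 3 titled Sh2-Thap, and every gene with enough reads was compared between them: 15828 of 53801 gene identifiers. The other 6 libraries are control C2C12 cells with DMSO (3) or thapsigargin (3) for the same 6 h, and they serve here only to show where the knockdown cells respond differently. All 12 libraries share the cell line, the treatment time and the poly(A)-selected RNA. The knockdown is known from the labels only as Sh2, 1 label for all 6 libraries, so a property of that population cannot be told apart from the loss of Cebpg. The labels do not say what the control cells carried, give no dose of thapsigargin, and describe growth in words that name HeLa, a human line, although the source of every library is given as C2C12. Whether the 3 libraries of a group stem from separate cultures is not stated. The p-values therefore cover only the spread between these libraries, which may be technical.

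Thapsigargin blocks the SERCA pump, which fills the endoplasmic reticulum (ER) with calcium. Depleted stores impair protein folding there and engage the 3 branches of the unfolded protein response: the kinase PERK, which phosphorylates the initiation factor eIF2α and so lowers translation while raising that of ATF4, the kinase and nuclease IRE1, which splices Xbp1 mRNA, and the membrane-bound factor ATF6. ATF4 belongs to the bZIP family and binds DNA as a dimer, often with a C/EBP protein, and C/EBPγ, the product of Cebpg, is a short member of that family that pairs with it. The title of the series concerns this pairing in the integrated stress response, the program that ATF4 directs.

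Promoters of genes on which the results below turn are shown for the DNA elements known to bind these factors. The table of RefSeq promoters, on the mouse build GRCm38.p6, holds 250 bases before and 50 bases after each start. They were searched on both strands for the ER stress response element (ERSE: CCAAT, 9 bases of any kind, CCACG), for ERSE-II (ATTGG, 1 base of any kind, CCACG), both known as sites of ATF6 and its partners, for the composite site of C/EBP and ATF proteins (TGATGNAA) and for the cAMP response element (CRE, TGACGTCA). Each line below is 120 bases, 5′ to 3′ on the strand of its gene, and capitals mark the match. Positions are counted from the transcription start, the first base before it being -1.
Hspa5, chr2:34771974-34772093, plus strand, ERSE at -65 to -47: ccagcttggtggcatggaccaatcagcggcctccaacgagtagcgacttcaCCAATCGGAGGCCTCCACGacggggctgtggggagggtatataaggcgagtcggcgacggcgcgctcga
Herpud1, chr8:94386292-94386411, plus strand, composite site on the opposite strand at -112 to -105 and ERSE-II at -52 to -42: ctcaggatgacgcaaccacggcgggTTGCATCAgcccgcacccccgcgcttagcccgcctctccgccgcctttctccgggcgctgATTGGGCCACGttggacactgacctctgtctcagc
Trib3, chr2:152344011-152344130, minus strand, composite site on the opposite strand at 15 to 22: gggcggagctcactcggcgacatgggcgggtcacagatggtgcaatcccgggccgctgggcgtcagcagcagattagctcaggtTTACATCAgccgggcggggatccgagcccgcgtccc
Chac1, chr2:119350993-119351112, plus strand, composite site on the opposite strand at -193 to -186: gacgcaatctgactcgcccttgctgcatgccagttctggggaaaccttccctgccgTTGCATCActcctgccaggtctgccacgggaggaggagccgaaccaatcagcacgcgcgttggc
Asns, chr6:7693169-7693288, minus strand, composite site at -23 to -16: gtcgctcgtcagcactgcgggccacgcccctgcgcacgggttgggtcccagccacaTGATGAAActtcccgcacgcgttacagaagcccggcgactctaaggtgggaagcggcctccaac
Avil, chr10:127000636-127000755, plus strand, composite site at -17 to -10: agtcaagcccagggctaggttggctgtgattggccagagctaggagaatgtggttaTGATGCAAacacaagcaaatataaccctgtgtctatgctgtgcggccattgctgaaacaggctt
The first 5 were chosen by a rule that also took Ddit3, in whose window none of these runs was found. Avil, an actin-binding protein gene, was added after its values were seen, because its response differed most between the populations. In 32851 promoters of this length the ERSE was found in 0.119%, ERSE-II in 0.0365%, the composite site in 3.97% and the CRE in 1.79%. Among the 11250 tested genes matched to a promoter these shares were 0.178%, 0.0889%, 2.99% and 3.4%. A match is a run of letters and shows no binding.

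The 6 libraries held 29.4 M to 35.1 M reads assigned to genes, and entries that name no gene took 13.32% to 14.61% of the reads of all 12 libraries. A principal component that separated thapsigargin from DMSO carried 65.1% of the variance, and the next, which separated knockdown from control cells, carried 19.5%. Thapsigargin libraries of the knockdown cells detected more genes, 23630 to 24572 with at least 1 read against 21208 to 22045 with DMSO. Mitochondrially encoded genes took 2.6% to 2.73% of reads with DMSO and 1.71% to 1.91% with thapsigargin. The common biological coefficient of variation was 4.67%, so small changes passed the test. Levels are given below as CPM, the reads of a gene over those of its library, scaled with the same library factors as the test, in the order of replicates 1 to 3, and changes as log2 fold changes with an approximate standard error (SE). All adjusted p-values are from edgeR's quasi-likelihood test with Benjamini-Hochberg adjustment over all genes tested, and a change is called at an adjusted p under 0.05.

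Cebpg (chromosome 7, 35046422 to 35056573 on the minus strand of GRCm38 in the GENCODE annotation) is the targeted gene and checks the labels. It stood at 4.62, 3.74 and 5.18 CPM in the knockdown libraries with DMSO and at 6.11, 5.58 and 5.29 CPM with thapsigargin. In control cells it stood at 51.7, 51.5 and 60.6 CPM and rose to 211, 219 and 216 CPM. The highest knockdown library was thus far below the lowest control library under either treatment. The rise in knockdown cells was 0.33 ± 0.11 (SE) in log2 (adjusted p = 0.0108) and missed the threshold without DMSO replicate 2 (0.2) or thapsigargin replicate 1 (0.26). In control cells it was 1.98, and the difference of the responses was -1.66 ± 0.13 (SE, adjusted p = 7.12e-12).

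Thapsigargin changed most of the transcriptome of the knockdown cells. Of all genes tested 69.8% were called (11051 genes), 35.4% higher and 34.4% lower. A rise of at least 1 in log2, a doubling, was called for 2085 genes (13.2%) and an equal fall for 1011 (6.39%). In control cells 74.7% of genes were called, 37.7% higher and 37.0% lower. With so many calls a gene list is read below against these shares. Of the calls in knockdown cells 50.8% were higher under the scaling used here. When libraries were scaled by their totals alone, the median of all genes moved by 0.119, and 60.4% were higher. Long intergenic RNAs were called higher for 241 of 569 (42.4%) and lower for 85 (14.9%), against 36.8% and 37.0% of 13502 protein-coding genes, and processed pseudogenes were called higher for 15.5% and lower for 27.2% of 497.

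**Figure D1:**
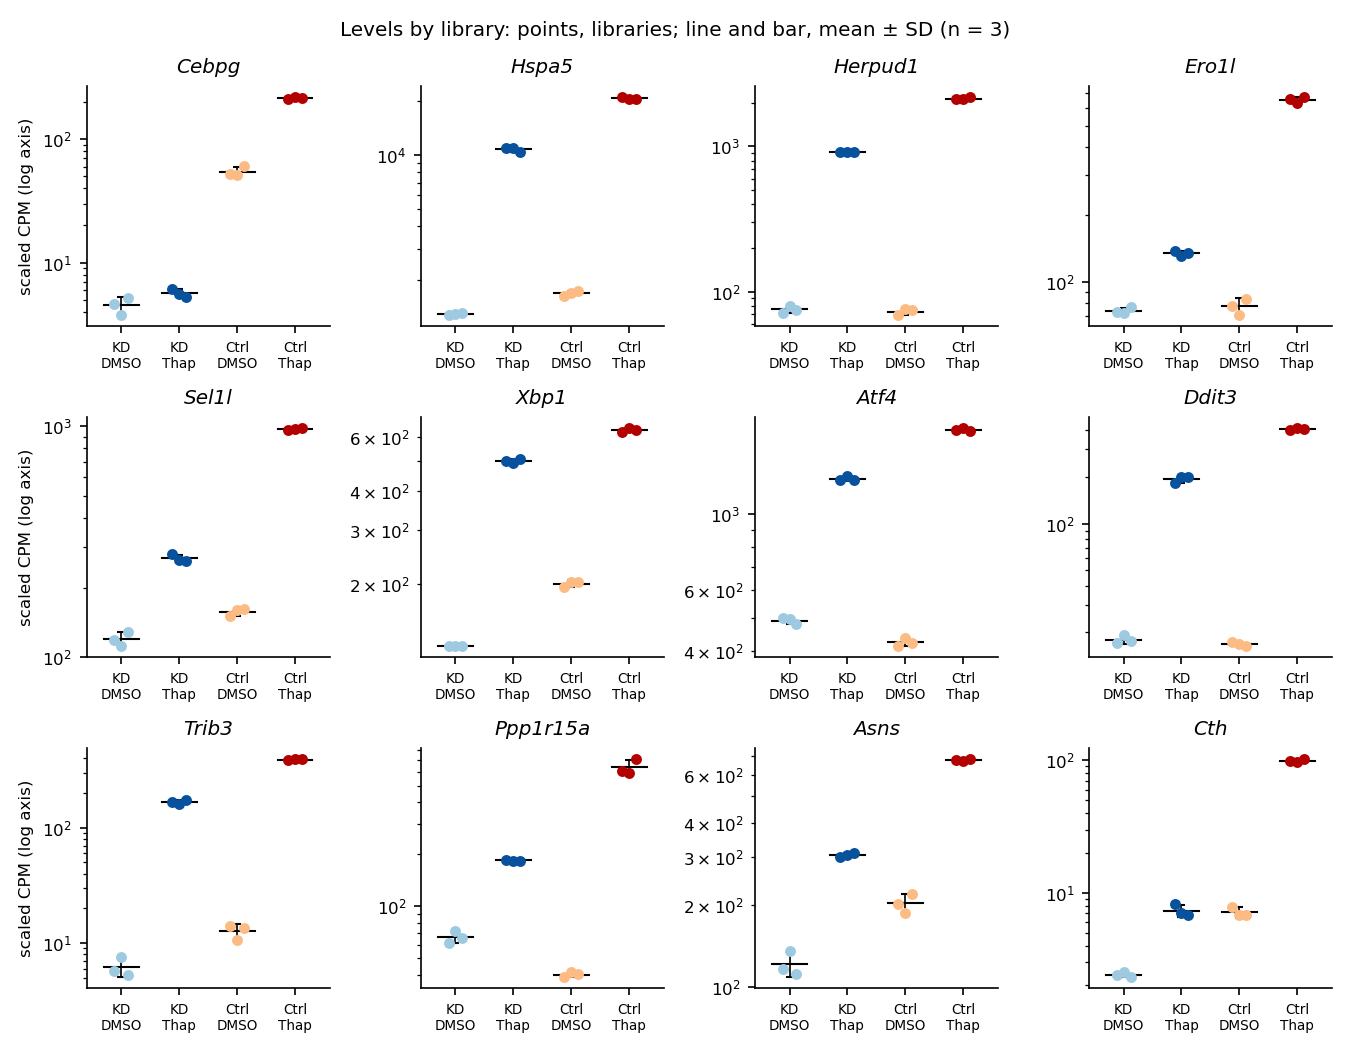
Levels of 12 genes in scaled CPM on log axes, each axis with its own range: points are libraries, lines and bars the mean ± SD (n = 3). KD is the knockdown, Ctrl the control population and Thap thapsigargin. Hspa5 in the thapsigargin-treated knockdown libraries lies above all DMSO libraries and below the treated control libraries, while Cebpg stays under 7 CPM in all 6 knockdown libraries.

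Most ER chaperone genes rose with thapsigargin in the knockdown cells, and for 23 of 26 the difference from the response of control cells was below 0. Of 26 genes for ER chaperones and folding enzymes, 23 rose and 3 fell, with a median change of 0.92 against 0 over all genes tested. The gene of the luminal chaperone BiP, Hspa5, stood at 1278, 1293 and 1321 CPM with DMSO and at 10904, 10943 and 10382 CPM with thapsigargin. No library of one treatment came near the other, and the change was 3.05 ± 0.044 (SE, adjusted p = 2.17e-32). It took 1.11% to 1.16% of all gene reads of the treated knockdown libraries, against 1.98% to 2.05% in treated control cells. The co-chaperones Sdf2l1 (2.87) and Dnajb9 (2.86) and the secreted folding factor Creld2 (2.74) followed closely. The disulfide isomerase Pdia4 rose by 1.69, and the 3 members that fell, Dnajc10 (-0.34), Txndc5 (-0.38) and Fkbp14 (-0.18), did so by small amounts.

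The difference of the 2 responses, knockdown minus control, had a median of -0.52 over these 26 genes and was called above 0 for 1, Txndc11 (0.24). Over all genes 35.3% of the differences were called, 17.6% above 0 and 17.7% below 0. Under scaling by library totals alone 75.5% of the called differences were above 0 in place of 49.9%, where the median difference moved by 0.158, and 18 of the 26 were called below 0. Ero1l, the oxidase that returns isomerases to their active form, departed most. It stood at 73, 72.8 and 77 CPM with DMSO and 137, 131 and 135 CPM with thapsigargin in knockdown cells, and at 78.1, 70.7 and 83.9 CPM and 656, 631 and 671 CPM in control cells. The populations overlapped with DMSO and lay far apart after thapsigargin, with a rise of 0.85 against 3.07 and a difference of -2.22 ± 0.071 (SE, adjusted p = 2.35e-21). Its paralog Ero1lb rose by 1.32 and 1.69, with a difference of -0.37. A promoter was on hand for 22 members, and 7 of these held an ERSE: Hspa5, Hsp90b1, Calr, Canx, Dnajc3, Creld2 and Pdia6. All 7 rose in knockdown cells, by 0.46 (Canx) to 3.05 (Hspa5).

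Degradation and secretion genes of the ER rose for the most part, again with many differences below 0. ER-associated degradation removes misfolded proteins to the proteasome, and 16 of its 22 genes rose and 2 fell, with a median of 0.43; by library totals alone 20 rose and none fell. Herpud1, a scaffold of the ubiquitin ligase complex whose promoter above holds both a composite site and an ERSE-II, stood at 71.8, 79.9 and 75.6 CPM with DMSO and 922, 909.8 and 908 CPM with thapsigargin. The rise was 3.59 ± 0.05 (SE, adjusted p = 8.02e-33), against 4.87 in control cells, with a difference of -1.28 ± 0.065 (SE). The ligase Syvn1 rose by 1.88, the channel component Derl3 by 1.64 and the adaptor Selenos by 1.45. Sel1l, the partner of Syvn1, rose from 119.5 to 267 CPM in knockdown cells and from 157 to 969.9 CPM in control cells, a difference of -1.46 ± 0.067 (SE, adjusted p = 7.24e-18). The difference was below 0 for 15 of the 22 genes and above 0 for none; by library totals alone it was below 0 for 9 and above 0 for 2. Of 28 genes of the translocon and the secretory pathway 21 rose and 3 fell (median 0.32), or 23 and 1 by library totals alone. The coat subunits Sec24a (1.02), Sec23b (0.92) and Sec24d (0.83) and the signal peptidase subunit Spcs2 (0.71) rose most. Here 19 differences were below 0 and none above, and 11 and 1 by library totals alone.

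Among the stress sensors and their kinases Xbp1, Atf6, Ern1, Eif2ak3, Creb3 and Creb3l2 rose in knockdown cells. Of 13 genes these 6 rose and 5 fell (7 and 3 by library totals alone), with a median of 0.079, and 3 fell when either DMSO replicate 3 or thapsigargin replicate 2 was left out. Over all genes tested 35.4% were called higher and 34.4% lower, with differences below 0 for 17.7% and above 0 for 17.6%. Xbp1 stood at 127, 127 and 126 CPM with DMSO and 499, 493 and 509 CPM with thapsigargin, a rise of 1.98 ± 0.042 (SE, adjusted p = 2.46e-28). Counts per gene do not separate its spliced from its unspliced mRNA. In control cells Xbp1 rose by 1.65, so that here the knockdown response was the larger, with a difference of 0.34 ± 0.057 (SE, adjusted p = 1.58e-05), while the level reached was higher in control cells (630.4 against 500.4 CPM). Atf6 rose by 1.18 against 1.91 in control cells, and Ern1, which encodes IRE1, by 0.68 against 1.7, with differences of -0.73 and -1.02. Creb3l2, a factor of the ATF6 kind, rose by 1.07 in knockdown and 1.06 in control cells, and the difference did not pass (0.0081 ± 0.083 SE, adjusted p = 0.961). Eif2ak3, which encodes PERK, rose by 0.86. Mbtps2 (-0.03), a protease that releases ATF6, and Creb3l1 (0.079) did not pass. Across the 13 genes 5 differences were below 0 and 1 above; by library totals alone 3 were below and 5 above.

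The known targets of IRE1-dependent mRNA decay fell in both populations. Of 6 genes 5 fell in knockdown cells (median -1.64), among them the scavenger receptor gene Scara3 (-2.71), the collagen gene Col6a1 (-2.28) and the lysosomal acetyltransferase gene Hgsnat (-1.94). In control cells the changes of these genes were -2.2, -1.89 and -1.41. The difference was called for Hgsnat (-0.53 ± 0.083 SE, adjusted p = 3.94e-06) and for none of the other 5; by library totals alone 1 was below 0 and 2 above. Bloc1s1, the best known target, was counted at 0.475 CPM with DMSO and did not pass (-0.37); 55.9% of its annotated exonic bases are shared with Rdh5, so that its count is uncertain.

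The regulators of the ATF4 and CHOP branch had the highest median change of the 34 lists, and for 15 of 20 the difference from control cells was below 0. The lists were chosen with earlier results of these data known, so this rank is a description only. Of 20 genes 19 rose and 1, the death receptor Tnfrsf10b (-0.15), fell (median 1.92, against 2.44 in control cells); by library totals alone 19 rose and none fell. Atf4 itself stood at 497, 494 and 478 CPM with DMSO and 1252, 1287 and 1257 CPM with thapsigargin, a rise of 1.37 ± 0.041 (SE, adjusted p = 3.82e-24). In control cells it went from 424 to 1758 CPM, a rise of 2.05, and the difference was -0.68 ± 0.057 (SE). Ddit3, which encodes the pro-apoptotic partner CHOP, stood at 17, 19.4 and 17.6 CPM with DMSO and 181, 198 and 200.4 CPM with thapsigargin, a rise of 3.42 ± 0.055 (SE) against 4.59 ± 0.056 (SE), with a difference of -1.17 ± 0.077 (SE, adjusted p = 6.94e-14). The groups did not overlap. With DMSO the Ddit3 levels of both populations lay between 16.8 and 18 CPM on average, and treated control cells reached 405 CPM.

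For Trib3 the difference did not pass. This pseudokinase gene, which feeds back on ATF4 and CHOP and whose promoter above holds the composite site, stood at 5.72, 7.49 and 5.32 CPM in knockdown cells with DMSO and at 168, 159.8 and 173 CPM with thapsigargin. Its rise was 4.75 ± 0.089 (SE, adjusted p = 6.56e-22) in knockdown and 4.95 ± 0.081 (SE) in control cells, where it went from 12.7 to 391 CPM. The difference of -0.19 ± 0.13 (SE) did not pass (adjusted p = 0.256), and both the DMSO level and the level reached were below those of control cells. Chac1, a glutathione-degrading enzyme gene with a composite site further upstream, went from 22, 28.1 and 24.8 to 263, 254 and 269.5 CPM, and its rise of 3.39 had a difference of -1.02 ± 0.1 (SE) from that of control cells. The stress-induced factor gene Atf3 rose by 3.77 against 5.59. The secreted factor genes Fgf21 (6.28) and Adm2 (4.25) rose from DMSO levels of 0.0578 and 0.177 CPM, and neither difference passed.

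Ppp1r15a, whose product GADD34 brings a phosphatase to eIF2α and so ends the translational block, had the largest difference of this list. It stood at 61.7, 72.1 and 65.5 CPM with DMSO and 186, 184 and 184 CPM with thapsigargin in knockdown cells, and at 38.8, 41.7 and 40.4 CPM and 609.5, 594 and 713 CPM in control cells. The knockdown cells thus held more with DMSO and less after thapsigargin, and the responses were 1.47 and 3.99, with a difference of -2.51 ± 0.085 (SE, adjusted p = 1.09e-18). Ppp1r15b, which encodes the constitutive partner, rose by 0.33 and 0.62. Atf5 was the 1 member whose difference was above 0 (1.91 against 1.35), and 15 were below 0, against 10 by library totals alone. Among the promoters of 16 members 7 held the composite site, and Ppp1r15a held a CRE.

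The C/EBP family moved unevenly. Cebpb, which encodes another partner of ATF4 and CHOP, rose from 41.2, 44.1 and 40.4 to 51.8, 56 and 58.8 CPM in knockdown cells, a change of 0.41 ± 0.087 (SE, adjusted p = 4.57e-04), against 0.89 in control cells, and the difference was -0.49. Cebpd rose by 0.67 where control cells gave -0.018, with a difference of 0.69 ± 0.097 (SE). Cebpa fell in control cells from 25.2 to 6.31 CPM, and in knockdown cells, which already stood at 4.12 CPM with DMSO, it did not pass (0.21, adjusted p = 0.143). The difference for Cebpa was 2.2 ± 0.16 (SE, adjusted p = 6.68e-13). Of the 5 members 4 rose, Cebpz among them (0.27), which shares the name but is not a bZIP factor, with a median of 0.33. The responses differed above 0 for 2 members and below 0 for 3. Annotated exons of Cebpb share 20.7% of their bases with the antisense gene Tmem189, whose reads cannot be told apart without strand.

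Enzymes that make amino acids and one-carbon units, a classic set of ATF4 targets, rose, and for 14 of 15 the difference from control cells was below 0. Of 15 genes 13 rose and none fell, with a median of 1.05 against 1.8 in control cells. Asns, asparagine synthetase, stood at 117, 135 and 111 CPM with DMSO and 298, 304 and 310.4 CPM with thapsigargin, a rise of 1.33 ± 0.058 (SE, adjusted p = 1.15e-17), and its difference from control cells was -0.41 ± 0.08 (SE). Gpt2, an alanine transaminase, rose by 2.24, the mitochondrial folate enzyme Aldh1l2 by 2.12 and the proline enzyme Aldh18a1 by 1.43. Cth, which makes cysteine, stood at 2.39, 2.54 and 2.31 CPM with DMSO and 8.26, 7.04 and 6.76 CPM with thapsigargin. In control cells it went from 7.86, 6.79 and 6.76 CPM to 98.9, 97.8 and 103 CPM, so the treated knockdown cells were near the untreated control level. The difference of the responses was -2.2 ± 0.14 (SE, adjusted p = 6.00e-14). The aspartate transaminase Got1 rose by 0.57 against 1.91. Mthfd1l (-0.00044, adjusted p = 0.994) did not pass in knockdown cells and rose in control cells (0.73). By library totals alone 14 differences were below 0 as well, and the remaining gene, Cbs, was at -0.59 (adjusted p = 0.413).

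Amino acid transporters rose for the most part. Of 15 genes 10 rose and 2 fell, or 12 and 1 by library totals alone (median 0.98, against 1.24 in control cells). Slc7a3 rose by 2.71, Slc7a7 by 2.59, the cystine carrier Slc7a11 by 2.42 and the glycine carrier Slc6a9 by 2.39. Slc7a1, which carries arginine and lysine, rose by 1.25 against 2.47. Slc1a5, the glutamine carrier, went the other way: it stood at 44.1, 45.6 and 39.6 CPM with DMSO and 18, 18.8 and 19.8 CPM with thapsigargin in knockdown cells, and at 46.5 and 59.7 CPM in control cells. It fell (-1.19) in the former and rose by 0.36 in the latter, a difference of -1.55 ± 0.085 (SE, adjusted p = 6.27e-16). Slc38a1 (0.027), Slc38a2 (0.049) and Slc43a1 (-0.074) did not pass in knockdown cells. Differences were below 0 for 10 and above 0 for 1, and by library totals alone below 0 for 9 and above 0 for 2.

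Aminoacyl-tRNA synthetases charge tRNAs in the cytosol and in mitochondria, mostly from separate genes. Of 20 cytosolic aminoacyl-tRNA synthetases 16 rose and 2 fell (median 0.7), with 1 lower when any of 4 knockdown libraries was left out (DMSO replicate 1 or 2, thapsigargin replicate 1 or 3) and none by library totals alone. Aars rose by 1.4, Wars by 1.35, Sars by 1.21 and Tars by 1.11. Set against control cells, the difference was below 0 for 15 and above 0 for none, and by library totals alone below 0 for 14 and above 0 for 2. Aars was among those that did not pass, at -0.12 ± 0.062 (SE), and Gars (-0.88) and Wars (-0.88) lay furthest below. Vars (-0.017, adjusted p = 0.756) and Hars (0.052, adjusted p = 0.322) did not pass in knockdown cells. Of 17 mitochondrial synthetases 8 rose and 6 fell (median 0.08), from Aars2 (-0.96) to Mars2 (1.03), and 2 differences were above 0 and none below, or 5 and none by library totals alone. The shares over all genes tested were 35.4% higher and 34.4% lower, with 17.6% of differences above 0 and 17.7% below. The composite site was in 5 of 12 promoters of cytosolic synthetases (Aars, Gars, Iars, Tars and Yars) and in 0 of 14 of mitochondrial ones. Its share among all tested genes matched to a promoter was 2.99%, so 0 of 14 does not set the mitochondrial synthetases apart.

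Calcium-handling genes were mixed as a list and held some of the larger single responses. Of 30 genes 14 rose and 13 fell (median 0.043), where 35.4% of all genes tested were called higher and 34.4% lower. Atp2a2, the SERCA pump of most cells and a target of the drug, rose by 0.73 against 1.65, a difference of -0.93 ± 0.058 (SE). Atp2a3, a pump isoform little expressed here with DMSO (0.738 CPM), rose to 9.24 CPM, by 3.65 ± 0.16 (SE). Rcan1, a feedback inhibitor of the calcium-dependent phosphatase calcineurin and itself induced by calcineurin, stood at 37.5, 40.4 and 36.8 CPM with DMSO and 139, 145 and 149.8 CPM with thapsigargin. That rise of 1.92 ± 0.054 (SE) exceeded the 1.03 of control cells by 0.88 ± 0.077 (SE, adjusted p = 4.84e-11). Nfatc4, one of the factors that calcineurin activates, rose by 1.27 where control cells gave -0.017, a difference of 1.29 ± 0.2 (SE). Nucb2, a calcium-binding protein of the secretory pathway, rose by 1.47. Differences were below 0 for 10 genes and above 0 for 5, and by library totals alone below for 10 and above for 7.

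Antioxidant genes of the NRF2 program fell more often than they rose. In knockdown cells 3 of 17 rose and 10 fell (median -0.4), and in control cells 8 rose and 8 fell. By library totals alone 6 rose and 9 fell in knockdown cells. Hmox1, heme oxygenase, stood at 131, 152 and 139.8 CPM with DMSO and 411, 422 and 447 CPM with thapsigargin, a rise of 1.6 ± 0.049 (SE). Control cells rose from 53.2 to 644 CPM, by 3.6, and the difference was -2.0 ± 0.069 (SE, adjusted p = 1.35e-20). The autophagy receptor Sqstm1 rose by 1.34. Gstm1, a glutathione transferase, fell (-1.94), glutathione reductase Gsr (-1.32), and Gsta4 (-1.22 against -0.0016 in control cells), a difference of -1.22 ± 0.1 (SE). Altogether 13 differences were below 0 and 2 above. The levels of thiol-related genes outside this list, Chac1 and Cth, are given above.

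Most heat shock chaperone genes of the cytosol fell in knockdown cells. Of 14 cytosolic heat shock genes 10 fell and 2 rose (median -0.83). Hspa1b fell (-2.0), with near-identical copies that may share its reads, Hsph1 (-1.33), the small heat shock gene Cryab (-1.21) and Hspa8 (-1.08). Set against control cells, the difference was below 0 for 6 and above 0 for 3, and for 5 each by library totals alone. Of 10 mitochondrial chaperones and proteases 4 rose and 3 fell, where control cells had 7 higher and none lower; by library totals alone 6 rose and 1 fell in knockdown cells. Hspa9 rose by 0.67 and the protease Lonp1 by 0.63 against 1.69. Hspd1, which encodes HSP60, went from 1253, 1263 and 1224 to 829, 889.6 and 807 CPM, a change of -0.57, and rose in control cells by 0.29, a difference of -0.86 ± 0.06 (SE, adjusted p = 3.41e-13). Differences were below 0 for 7 members and above 0 for none, and by library totals alone for 4 and 1. Over all genes tested 35.4% were called higher and 34.4% lower, with differences below 0 for 17.7% and above 0 for 17.6%.

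Replication genes fell with thapsigargin, and for 18 of 24 the difference from control cells was above 0. Of 24 S-phase genes 20 fell and 2 rose, the latter 0 to 2 with 1 library left out, and the median was -0.63 against -1.12 in control cells. The difference was below 0 for 1, and by library totals alone above 0 for 22 and below for none. Ccne1, cyclin E1, stood at 65.5, 62.4 and 62.1 CPM with DMSO and 16.5, 15.8 and 15.5 CPM with thapsigargin, a change of -1.99 ± 0.063 (SE) against -2.92 ± 0.07 (SE). Thymidine kinase Tk1 fell (-1.46), Ccne2 (-1.5) and the ribonucleotide reductase subunit Rrm2 (-1.24). The helicase subunit Mcm6 fell (-0.59 against -1.42), a difference of 0.84 ± 0.062 (SE, adjusted p = 1.26e-12). Of 22 genes of G2 and mitosis 19 fell and 1 rose (median -0.48), Cdk1 (-1.09) and Kif20a (-0.9), with 5 differences above 0 and 2 below. By library totals alone these were 14 and 1. Over all genes tested 17.6% of differences were above 0 and 17.7% below.

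Among 13 genes of G1 cyclins and CDK inhibitors 4 rose, or 2 without 1 of 4 knockdown libraries (DMSO replicate 2 or 3, thapsigargin replicate 1 or 2), and 6 fell; by library totals alone 6 rose and 6 fell. Cyclin D1, Ccnd1, fell (-1.48), Cdk2 (-1.49), the inhibitor Cdkn2c (-1.64) and Ccnd3 (-1.37). Ccnd2 rose in control cells from 81.6 to 255 CPM and did not pass in knockdown cells, which held 98.9, 89.9 and 104 CPM with DMSO and 107, 102 and 96.2 CPM with thapsigargin (0.063 ± 0.052 SE, adjusted p = 0.292). Its difference was -1.58 ± 0.074 (SE, adjusted p = 1.56e-17). Over this list 5 differences were above 0 and 1 below, and by library totals alone 10 and 1. The shares over all genes tested were 35.4% higher and 34.4% lower, with 17.6% of differences above 0 and 17.7% below.

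Targets of p53 rose for 12 of 18 genes and fell for 4, or 13 and 2 by library totals alone (median 0.54, against 0.34 in control cells). The kinase Plk2 rose by 1.89, the BH3-only genes Bbc3 (PUMA) by 1.48 and Pmaip1 (NOXA) by 1.43, and Mdm2 by 0.88. Fas, a death receptor, rose by 0.64 where control cells gave -0.086, a difference of 0.72 ± 0.13 (SE, adjusted p = 3.28e-05). The difference from control cells was above 0 for 5 and below 0 for 7, and by library totals alone for 6 and 5. In the BCL2 family, which sets the threshold of mitochondrial cell death, 3 of 11 rose and 6 fell (median -0.24). Bok fell (-1.77 against -2.85), the anti-apoptotic Bcl2l1 (-0.75) and the BH3-only gene Bcl2l11 (-0.79). Bmf, another BH3-only gene, rose from 0.388, 0.383 and 0.52 to 1.5, 1.17 and 0.999 CPM in knockdown cells and fell from 3.44 to 2.16 CPM in control cells, with a difference of 2.16 ± 0.33 (SE, adjusted p = 3.52e-06). Differences were above 0 for 4 and below 0 for 2, and by library totals alone for 6 and 1. Over all genes tested 35.4% were called higher and 34.4% lower, with differences above 0 for 17.6% and below 0 for 17.7%.

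Genes of lipid synthesis fell in both of their lists. Of 24 genes of the cholesterol list 21 fell and 1 rose, the latter 0 without DMSO replicate 1 or thapsigargin replicate 1 (median -0.8, against -0.54 in control cells). Dhcr7, a reductase at the end of the pathway, stood at 27.2, 25.9 and 26.9 CPM with DMSO and 7.2, 6.19 and 5.99 CPM with thapsigargin, a change of -2.04 ± 0.084 (SE) against -2.37, with a difference of 0.32 ± 0.12 (SE, adjusted p = 0.0333). That difference missed the threshold when any 1 of 5 libraries was left out (0.23 to 0.31; control DMSO replicate 1 or 3, control thapsigargin replicate 2, knockdown DMSO replicate 2, knockdown thapsigargin replicate 1). Mvd did not pass in knockdown cells (-0.15, adjusted p = 0.0734), passed there without DMSO replicate 3 (-0.22) or thapsigargin replicate 2 (-0.2), and rose in control cells by 0.93, a difference of -1.08. Set against control cells, the difference was below 0 for 13 and above 0 for 3, and by library totals alone for 10 and 5. All 10 genes of fatty acid synthesis fell (median -0.67), the elongase Elovl6 (-1.6) and the desaturase Scd2 (-1.31). Fatty acid synthase, Fasn, fell (-0.75 against -0.1), and 6 differences were below 0 and none above, against 2 and 2 by library totals alone.

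Glycolytic genes fell for 15 of 16 and rose for 1 (median -0.65, and -0.64 in control cells). The difference did not pass for 10 of them, such as lactate dehydrogenase Ldha (-0.93 and -0.87, difference -0.066 ± 0.063 SE). The glucose transporter Slc2a1 stood at 130.2, 133 and 124 CPM with DMSO and 50.5, 50.8 and 50.5 CPM with thapsigargin in knockdown cells, and at 143, 147 and 139.6 CPM and 161, 155 and 172 CPM in control cells. The change was -1.35 in the former and 0.18 in the latter, a difference of -1.53 ± 0.065 (SE, adjusted p = 1.32e-18). Hexokinase Hk2 fell (-0.17) in knockdown cells, which did not pass by library totals alone, and rose by 1.24 in control cells, a difference of -1.41 ± 0.064 (SE). The difference from control cells was above 0 for 4 genes and below 0 for 2, and by library totals alone for 6 and 2. Over all genes tested it was above 0 for 17.6% and below 0 for 17.7%.

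Ribosomal protein genes moved little. Of 25 genes 18 were called lower and 2 higher, Rpl3 (0.43) and Rpl10a (0.39), with a median of -0.17. The count of lower genes was 11 without thapsigargin replicate 1, and 6 when libraries were scaled by their totals alone, where the median was nearer 0 (-0.05). Rpl11 fell (-0.72) and Rps4x (-0.61). Differences were below 0 for 7 and above 0 for none, and by library totals alone below for 1 and above for 3, so no direction is given. Genes encoded by the mitochondrial genome fell for 8 of 10 and rose for none (median -0.72 against -0.31 in control cells), mt-Nd5 (-0.9) and mt-Nd1 (-0.89), with 7 differences below 0, against 5 by library totals alone. Their reads may be split with nuclear copies, and mt-Atp6 and mt-Co3 were counted at 0.446 and 0.6 CPM only.

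The labelled cell type was checked by its markers, all of which had reads in every group. The summed level of 5 myoblast markers (Myod1, Myf5, Des, Cdh15 and Itga7) was 1471 to 1589 CPM in knockdown libraries with DMSO and 1476 to 1539 CPM with thapsigargin. Within this sum Myf5 rose by 2.5, and the other 4 fell: Des (-0.49), Itga7 (-0.38), Cdh15 (-0.27) and Myod1 (-0.17). Of 16 myogenic regulators 6 rose and 7 fell (median -0.13). The shares over all genes tested were 35.4% higher and 34.4% lower, with 17.6% of differences above 0 and 17.7% below. Myf5, an early myogenic factor, stood at 76.5, 72.5 and 71.8 CPM with DMSO and 420.1, 451 and 378 CPM with thapsigargin, a rise of 2.5 ± 0.063 (SE) against 2.03 ± 0.063 (SE) in control cells, with a difference of 0.47 ± 0.086 (SE, adjusted p = 8.96e-05). Myf6 rose by 1.76, while Id1, an inhibitor of myogenic factors, fell (-1.67 against -0.96). Pax7, a marker of satellite cells, fell (-1.22 against -2.66); the difference of 1.44 missed the threshold without 1 of 3 knockdown libraries (DMSO replicate 3, 1.29; thapsigargin replicate 1, 1.27; thapsigargin replicate 2, 1.35). Differences were above 0 for 6 and below 0 for 3. Of 15 genes of differentiated muscle 7 fell, 1 rose and 7 did not pass (median -0.62). Cardiac actin, Actc1, fell (-1.69) and the slow troponin T gene Tnnt1 (-1.08). The riser was embryonic myosin Myh3 (1.22), and with 1 library left out 1 to 3 genes were called higher, or 2 by library totals alone. Set against control cells, the difference was below 0 for 2 and above 0 for none, and by library totals alone for 1 each.

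Matrix genes fell almost without exception. Of 24 extracellular matrix genes 23 fell and none rose (median -0.92, against -0.63 in control cells). Nid1, a basement membrane linker, had the largest fall among protein-coding genes of at least 5 CPM whose libraries did not overlap. It stood at 906, 861 and 941 CPM with DMSO and 79.7, 77 and 67.9 CPM with thapsigargin, a change of -3.59 ± 0.058 (SE, adjusted p = 2.80e-30), and in control cells it went from 549.5 to 80.4 CPM (-2.77). Col6a3 fell (-1.8), Col3a1 (-1.31) and the thrombospondin gene Thbs1 (-1.75 against -2.97), a difference of 1.22 ± 0.086 (SE). Fbn1, fibrillin, fell in knockdown cells (-1.04) and rose in control cells by 0.26, a difference of -1.3 ± 0.074 (SE, adjusted p = 6.17e-15). The list had 12 differences below 0 and 5 above, and 8 and 5 by library totals alone, where the median difference turned from -0.14 to 0.01.

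Integrins, the receptors for these proteins, fell for 8 of 13 and rose for 2, or 1 without thapsigargin replicate 3 (median -0.66). Itgb3 fell (-2.39) and Itga3 (-2.34 against -3.38). Itga6, a laminin receptor subunit, stood at 152, 145 and 157 CPM with DMSO and 59.8, 61.6 and 55 CPM with thapsigargin, a change of -1.36 where control cells gave 0.0036, and the difference was -1.37 ± 0.073 (SE, adjusted p = 3.14e-16). Itga9 rose by 2.63, from 0.0677 to 0.45 CPM. Differences were below 0 for 4 and above 0 for 2, and by library totals alone for 2 and 3.

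Immediate early genes, which respond to calcium and growth signals, rose for 10 of 19 and fell for 6 (median 0.2). The nuclear receptor Nr4a3 rose by 1.62, Klf4 by 1.56 and Myc by 1.56, and Egr3 fell (-2.26). Fosl2, an AP-1 subunit, went from 105, 105 and 119 to 231, 227 and 236 CPM in knockdown cells, a rise of 1.08 ± 0.049 (SE), where control cells gave -0.0084. The difference was 1.08 ± 0.069 (SE, adjusted p = 3.02e-14). Ier3 rose by 0.26 against 1.52, a difference of -1.26 ± 0.063 (SE). Altogether 9 differences were below 0 and 5 above, and 8 and 6 by library totals alone. Among all genes tested 35.4% were called higher and 34.4% lower. Their differences were above 0 for 17.6% and below 0 for 17.7%.

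Inflammatory and NF-kB genes rose for 11 of 19 and fell for 7 (median 0.46, against 0.84 in control cells). Relb, an NF-kB subunit, rose by 2.13 against 1.57, with a difference of 0.56 ± 0.093 (SE). Icam1, an adhesion molecule, stood at 0.0647, 0.236 and 0.231 CPM with DMSO and 2.5, 1.69 and 2.38 CPM with thapsigargin, a rise of 3.58 ± 0.31 (SE), while control cells reached 5.34, 4.38 and 5.7 CPM. The difference was called (-4.23, adjusted p = 1.14e-04), but control cells had only 2 reads with DMSO, so its size depends on the fit. Ptgs2, cyclooxygenase 2, rose by 1.58 against 3.44, a difference of -1.86 ± 0.11 (SE). The chemokine gene Cxcl2 had 3 reads over the DMSO libraries and 60 over the thapsigargin libraries, a ratio of 20.1 with a 95% counting interval of 6.6 to 100.2. The difference from control cells was above 0 for 7 and below 0 for 6, and by library totals alone for 9 and 6. The shares over all genes tested were 35.4% higher and 34.4% lower, with 17.6% of differences above 0 and 17.7% below.

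Of 9 acute phase and innate defence genes 5 rose and 2 fell, or 1 without thapsigargin replicate 2 or by library totals alone (median 0.77, and -0.25 in control cells). Steap4, a metalloreductase, rose by 4.25 and the serum amyloid gene Saa3 by 2.15. Lcn2, an iron-sequestering lipocalin, stood at 0.453, 0.648 and 0.492 CPM with DMSO and 1.76, 1.43 and 1.29 CPM with thapsigargin, a rise of 1.48 ± 0.25 (SE), while control cells went from 0.222 to 9.3 CPM, with a difference of -3.88 ± 0.41 (SE, adjusted p = 3.19e-09). Altogether 2 differences were above 0 and 1 below. Interferon response genes rose for 17 of 23 and fell for 2, or for 0 or 1 without DMSO replicate 3 or thapsigargin replicate 1 and for 0 by library totals alone (median 0.97, against 1.37). Mx2 rose by 3.55, from 0.325 to 3.93 CPM, Oasl1 by 1.76 and Oas1a by 1.6. Set against control cells, the difference was below 0 for 6 and above 0 for 1. Autophagy genes were split, 8 of 20 higher and 10 lower (median -0.078), from Atg13 (1.06) and Uvrag (1.04), which rose, to Ulk1 (-0.62), which fell. By library totals alone 8 were higher and 5 lower. Differences were above 0 for 4 and below 0 for 2, and by library totals alone for 9 and none. Among all genes tested 35.4% were called higher and 34.4% lower. Their differences were above 0 for 17.6% and below 0 for 17.7%.

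Many of the largest rises in knockdown cells were of genes all but silent with DMSO. Trib3, given above, also was among the largest rises and was not silent with DMSO. Cyp3a57, a cytochrome P450 of the liver type, had 1 read over the DMSO libraries and 1304 over the thapsigargin libraries, a ratio of 1310.7 with a 95% counting interval of 234.8 to 51809. Gabrr1, a GABA receptor subunit, had 2 and 952 reads (478.4, interval 132.1 to 3956.4) and the neuropeptide receptor Npffr1 had 3 and 507 (169.9, interval 57.8 to 826.5). These intervals cover counting error only, and reads without molecular identifiers are not independent molecules. Grhl2, a factor of epithelial cells, stood at 0.0323, 0.147 and 0.0867 CPM with DMSO and 7.49, 7.39 and 7.37 CPM with thapsigargin, a rise of 6.3 ± 0.28 (SE). Pnma5 rose by 6.96, Gm1110 by 7.29, the vesicle GTPase Rab15 by 5.39, the deubiquitinase Usp17lb by 5.07, the DNase Dnase1l3 by 4.66 and the linker histone Hist1h1a by 4.55. Several of these, Cyp3a57, Usp17lb and Hist1h1a, belong to families of near-identical genes, and their counts depend on how such reads were assigned.

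Control cells had rises of the same kind: the changes there were 7.66 for Grhl2, 7.58 for Pnma5, 7.33 for Gm1110, 5.51 for Usp17lb, 5.22 for Dnase1l3 and 4.49 for Hist1h1a, and the difference passed for none of these 6. Rab15 rose there by 6.67, and its difference of -1.28 ± 0.49 (SE) passed (adjusted p = 0.0388), but missed the threshold when any 1 of 6 libraries was left out (-1.26 to -1.03; control DMSO replicate 2 or 3, control thapsigargin replicate 3, knockdown DMSO replicate 2, knockdown thapsigargin replicate 2 or 3). Altogether 58 protein-coding genes went from a mean under 0.1 CPM with DMSO to at least 1 CPM with thapsigargin in knockdown cells, all 58 of them called. They were picked by the size of that rise in the same libraries, so their calls add no support. Of the 58 genes 49 were under 0.1 CPM in untreated control cells too and 37 made the same passage in control cells, while 1 gene went the other way.

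Summed levels of epithelial, endothelial and adipocyte markers were higher with thapsigargin in both populations. In control cells the median sums went from 14.62 to 27.56, from 5.01 to 27.49 and from 19.45 to 54.22 CPM, in that order. The summed level of 8 epithelial markers, Grhl2 among them, was 15.78 to 18.28 CPM with DMSO and 38.58 to 41.06 CPM with thapsigargin in knockdown cells, of 6 endothelial markers 5.9 to 6.95 and 18.42 to 21.1 CPM, and of 6 adipocyte markers 34.06 to 39.09 and 92.85 to 99.23 CPM. Of the 6 epithelial markers tested 4 rose, and all 5 endothelial markers tested rose. Of the adipocyte markers only Pparg and Fabp4 had enough reads to be tested: Pparg rose from 35.7 to 94.8 CPM and so makes up most of that sum, and Fabp4 (-0.41) did not pass. The sum of 8 leukocyte markers was 5.95 to 8.87 and 4.58 to 5.99 CPM. With thapsigargin every epithelial, endothelial and leukocyte marker had at least 1 read and the adipocyte marker Lep had none; with DMSO Cd3e, Adgre1, Emcn, Plin1 and Lep were among those with none. Their part in the rises was not tested. In bulk RNA a change in the number of cells of a kind and a change in RNA per cell cannot be told apart.

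The largest falls were led by Nid1, given above. After it, Oaf fell from 97.8, 102 and 101 to 9.46, 8.11 and 9.69 CPM, a change of -3.46 ± 0.069 (SE). Islr, a leucine-rich surface protein gene of mesenchymal cells, fell (-3.39), from only 12.3 CPM where untreated control cells held 109.5 CPM. The peroxidase Pxdn, which crosslinks collagen IV, stood at 165, 157 and 174 CPM with DMSO and 18.2, 17.7 and 17.8 CPM with thapsigargin, a change of -3.21 ± 0.053 (SE) against -3.35 in control cells, and the difference of 0.14 did not pass. Lrp1, an endocytic receptor, fell from 1069 to 181 CPM. Others were Pbxip1 (-2.85), the neuronal factor gene Npas4 (-2.84), Nptx1 (-2.75), the hyaluronidase Cemip2 (-2.67) and the growth factor gene Prl2c3 (-2.56), a member of a family of near copies.

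Timp3 and Prr9 stood higher with DMSO in knockdown cells than in control cells and fell further there. Timp3, an inhibitor of matrix proteases, stood at 382, 368 and 435 CPM with DMSO and 73.2, 63.8 and 55.9 CPM with thapsigargin in knockdown cells, and at 155, 138 and 179 CPM and 59.5, 61.2 and 69.4 CPM in control cells. After thapsigargin the means were 64.3 and 63.4 CPM, and the difference of the responses was -1.31 ± 0.18 (SE, adjusted p = 2.90e-04). Prr9 went from 68.3 to 10.7 CPM in knockdown cells and from 5.86 to 3.01 CPM in control cells, a difference of -1.74 ± 0.14 (SE). Annotated exons of Timp3 share 21.3% of their bases with Syn3 on the opposite strand. Such overlap with antisense genes also holds for Slc6a9 (30.2%), Kif20a (29.3%), Ccnd1 (23.4%), Ccn2 (23.2%), Fbn1 (20.1%) and Cryab (17%).

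Set gene by gene against control cells, most genes called in knockdown cells were called in the same direction in control cells. The populations share no library. Of the genes called higher in knockdown cells 82.2% (4615) were called higher in control cells as well, which is 77.3% of those higher there, and of the genes called lower 81.2% (4419) were called lower there, or 75.4% of the control genes. Across all genes tested the correlation of the 2 responses was 0.87, a description over genes, which are not independent. Among the 2556 genes that rose by at least 1 in control cells, the median change was 2.1 there and 1.53 in knockdown cells. The difference was called below 0 for 838 of them (32.8%) and above 0 for 64 (2.5%). Among the 1613 genes that fell by at least 1 in control cells, the medians were -1.37 and -0.94, and the difference was above 0 for 779 (48.3%) and below 0 for 38 (2.4%). These genes were chosen by their size in control cells, which by itself favours larger values there.

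Promoter matches were counted for genes with and without a called difference below 0. A difference that was not called may still be a smaller rise in knockdown cells. Of 624 promoters of genes that rose by at least 1 in control cells and had a difference below 0, 8.33% held the composite site and 1.44% an ERSE. Of 1067 promoters of genes with such a rise and no called difference, the shares were 4.59% and 0.469%. Among 1377 promoters of genes that rose by at least 1 in knockdown cells they were 5.37% and 0.726%, and among 613 of genes that fell by as much 3.1% and 0. These shares are descriptions, and the groups were not tested against each other.

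Differences furthest below 0 belonged to genes that rose in control cells. Avil, whose promoter is shown above, stood at 0.97, 0.943 and 0.81 CPM with DMSO and 1.41, 2.3 and 1.82 CPM with thapsigargin in knockdown cells. In control cells it rose from 1.49, 0.716 and 1.18 CPM to 68.5, 59.4 and 74.6 CPM. The populations were close with DMSO and did not overlap with thapsigargin, and the responses were 1.01 and 5.9, with a difference of -4.88 ± 0.34 (SE, adjusted p = 1.93e-11). Als2cl did not pass in knockdown cells (0.22, adjusted p = 0.325) and rose by 4.22 in control cells, and Kcnma1, a calcium-activated potassium channel, likewise (0.9 and 4.56). Tfcp2l1, a factor related to Grhl2, rose in both, to 3.17 CPM in knockdown and 29.1 CPM in control cells, a difference of -3.7 ± 0.41 (SE). Car6, a secreted carbonic anhydrase, rose to 0.783 CPM in knockdown and 131 CPM in control cells; the difference of -4.29 rests on 5 reads with DMSO and missed the threshold without DMSO replicate 2 (-3.63).

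In the other direction stood genes that fell in control cells and fell less, or not, in knockdown cells. The chemokine gene Cxcl12 stood at 102, 102 and 103 CPM with DMSO and 65.8, 71.3 and 69.2 CPM with thapsigargin in knockdown cells, and at 85.9, 85.5 and 95.9 CPM and 13.5, 13.7 and 14.4 CPM in control cells. Untreated levels were near each other, and the changes of -0.57 and -2.68 differed by 2.11 ± 0.077 (SE, adjusted p = 3.92e-20). Ccn2, a matricellular protein and target of the YAP and TGF-β pathways, was at 431, 490.2 and 399 CPM and 444, 555 and 504 CPM in knockdown cells (0.19), groups so close that leaving out any of 4 knockdown libraries (DMSO replicate 1 or 3, thapsigargin replicate 2 or 3) ended the call, at 0.1 to 0.18. It fell in control cells from 365 to 120.0 CPM, a difference of 1.79 ± 0.11 (SE). Rgs4, a regulator of G-protein signals, rose by 0.86 in knockdown and fell (-0.88) in control cells. Pxylp1 fell (-1.32 against -3.36), and the receptor genes Csf2rb (-1.18 against -3.24) and Cxcr6 (-1.69 against -3.56) likewise had differences above 0. Lrrc15, at 1 CPM with DMSO in knockdown cells, had a difference of 2.52 ± 0.33 (SE).

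Called responses of opposite direction were found for 466 genes, and for 50 with at least 0.5 in log2 on both sides, 18 higher and 32 lower in knockdown cells. Cdsn, a desmosomal protein of epithelia, stood at 5.3, 5.66 and 6.71 CPM with DMSO and 2.97, 2.37 and 1.97 CPM with thapsigargin in knockdown cells, a change of -1.28 ± 0.14 (SE). Control cells rose from 5.82, 6.27 and 7.37 CPM to 42.7, 38.5 and 41.1 CPM, and the difference was -3.93 ± 0.16 (SE, adjusted p = 1.32e-18). The lysophosphatidic acid receptor Lpar4 (-1.0 and 3.13) and the Golgi protein gene Paqr3 (-0.82 and 2.16) had the same pattern, as did the unclassified transcript Gm42793 (-2.78 and 0.62), which shares 24.7% of its exonic bases with Spp1. Slc2a4, the insulin-regulated glucose transporter of muscle, went up in knockdown cells (1.65) and down in control cells (-1.22), with means of 0.118 and 0.384 CPM in knockdown and 0.414 and 0.171 CPM in control cells. The call of Slc2a4 in knockdown cells was lost without DMSO replicate 1 (1.23) or thapsigargin replicate 3 (1.26).

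**Figure D2:**
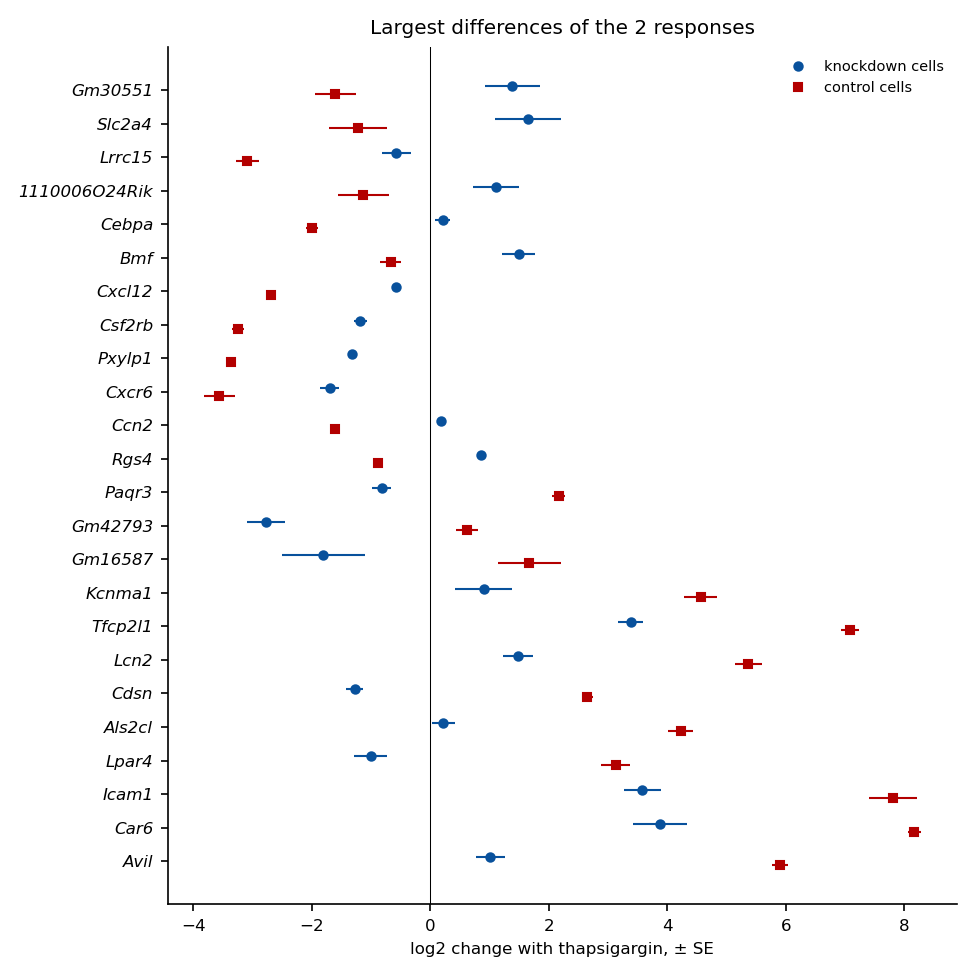
Genes among the largest differences of the 2 responses, as log2 change with thapsigargin ± SE in knockdown (circles) and control cells (squares), ordered by the difference. Avil at the bottom and Gm30551 at the top have the largest differences in either direction.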

How the data were processed

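RNA-seq of 12 mouse C2C12 libraries was used, 3 in each of 4 groups, as the labels group them. The authors deposited read counts per gene, and the labels say that the RNA was poly(A)-selected. Per the submitters' processing notes, Trim Galore, STAR 2.5.3a, bedtools 2.31.0 and DESeq2 were used with the builds mm10 and hg38; the counter, its gene annotation and its strand setting are not given in the sources used here. Overlapping and antisense genes may share reads.

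From the counts, 5 entries that name no gene were removed (13.32% to 14.61% of reads), and symbols and types were taken from GENCODE by identifier (53620 of 53801 matched); where several identifiers share a symbol the one with most reads stands for it. Low genes were filtered by group with filterByExpr, libraries were scaled by TMM, and group means of all 12 libraries were fitted with edgeR 4.0.16 (quasi-likelihood, robust, 8 residual degrees of freedom). Contrasts were thapsigargin minus DMSO in each population and the difference of the 2. The SE is the change divided by the root of F. Levels are CPM with TMM factors.

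The genes named are 12 rises and 12 falls of largest size (at least 5 CPM in a group, no overlap of libraries), 8 differences and 5 opposed pairs in each direction, and, per list, the 4 largest changes, 2 largest differences and up to 3 members that did not pass, beside genes chosen by name; where others stand in the text they were chosen after their values were seen. A few genes under these rules are not reported here. The members and the 34 lists (605 genes, 589 tested) were chosen with earlier results of these data known. Counts were simulated for the 15828 genes tested, and 14439 of these passed the filter. Knockdown responses of 1 or 0.5 in log2 were given to 200 genes each, all with at least 1 CPM in untreated knockdown cells. The fit recovered 99.5% and 89% of these, with 21 false calls among 14039 unchanged genes. For differences of these sizes, given to 100 genes each, the fit recovered 96% and 82%, with 12 false calls among 14239. Recovery for genes under 1 CPM was not tested, nor was recovery where most genes change, as in the measured libraries. Each result was recomputed with 3 further scalings, 2 further filters, a stricter threshold (0.01), the compared groups alone, a replicate block, limma-voom (limma 3.58.1) or DESeq2 1.42.0, and without each library. Promoters are those of RefSeq.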

Additional observations from a re-analysis of the deposited data

Results flagged for a closer look

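Each of the following genes had a difference of the 2 thapsigargin responses (knockdown minus control, log2) past an adjusted p of 0.05 in edgeR's quasi-likelihood test, and either was among the largest differences or responded in opposite directions. Below 0 stood the actin-binding gene Avil (-4.88), Car6 (-4.29), Icam1 (-4.23), Lpar4 (-4.13), Als2cl (-4), Cdsn (-3.93), Lcn2 (-3.88), Tfcp2l1 (-3.7), Kcnma1 (-3.66), Gm16587 (-3.47), Gm42793 (-3.4) and Paqr3 (-2.99). Above 0 stood Gm30551 (2.99), Slc2a4 (2.86), Lrrc15 (2.52), 1110006O24Rik (2.23), Cebpa (2.2), the BH3-only gene Bmf (2.16), the chemokine Cxcl12 (2.11), Csf2rb (2.06), Pxylp1 (2.04), Cxcr6 (1.87), Ccn2 (1.79) and Rgs4 (1.73). Among all genes tested 35.3% had a called difference, so that a call alone does not set these genes apart.

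The opposite direction of 4 of them rests on few reads in knockdown cells. The response there lost its call without 1 library for Gm30551 (1.13 without DMSO replicate 2, 1.18 without thapsigargin replicate 3), 1110006O24Rik (0.85 without thapsigargin replicate 1), Slc2a4 (1.23 without DMSO replicate 1, 1.26 without thapsigargin replicate 3) and Gm16587, an antisense transcript (-1.27 without DMSO replicate 3, -1.28 and -1.22 without thapsigargin replicate 2 or 3). Control cells had 2 reads of Icam1 with DMSO, so that its fitted difference is no measure of size. The difference of Car6 was -3.63 without knockdown DMSO replicate 2 and did not pass. Lrrc15 had a knockdown response of -0.57 that lost its call under 12 of 16 alternatives, while its difference passed under all of those run. Groups of 3 were not checked for single libraries that stand apart.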

How the results depend on the processing

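Across 16 alternatives for each knockdown response, 4142 of 4256 values for 268 named genes kept their side of the threshold. Of the rest 66 lost the call, 45 gained it and 3 turned sign, all 3 when libraries were scaled by their totals alone: Mthfd1l (0.12), Rpl4 (0.022) and Vars (0.10). Of 5606 values of the difference, 5381 kept their side, 158 lost the call and 67 gained it. Where neither value passed, a change of sign was not counted. The difference of Aars, for one, went from -0.12 to 0.042 by library totals alone. Scaling by totals alone called 5204 differences higher and 1685 lower, against 2790 and 2804. A filter of 1 CPM in 3 libraries left 1209 genes higher by at least 1 in knockdown cells, against 2085; it tested 12973 genes in place of 15828. With each library left out in turn, knockdown calls were 10579 to 10841 (5367 to 5511 higher, 5212 to 5330 lower; by at least 1, 2088 to 2207 and 1012 to 1084), control calls 11526 to 11652 and called differences 5062 to 5448. With the replicate number as a block the calls were 11117 in knockdown cells, 11854 in control cells and 5770 for the difference. Same-numbered libraries had correlations of deviations of -0.0302 to 0.0767 over 18 pairs. These values show no clear pairing by number, but with 3 libraries per group they cannot exclude it. DESeq2 called 10770 genes in knockdown cells and limma-voom 11037. Depth limits the genes of few reads: 37973 identifiers were not tested.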
